A study of Mus musculus with 12 samples.

Results

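The kinases of the mitogen-activated protein (MAP) kinase cascades were examined in cortical microglia, the resident macrophages of the brain, through the chromatin regions assigned to their genes. A region belonged to the group when the gene named for it in the deposited signal table was called Mapk, Map2k, Map3k or Map4k followed by a number, with 1 gene left out by the rule, and this gave 411 of 104981 regions and 47 of 18207 gene names. Of these, 41 encode kinases and 6 carry such a name without being a kinase (Mapk8ip2, Mapk8ip3, Mapk1ip1, Mapk1ip1l, Map3k7cl and Map2k3os). The regions, each 500 bp long, were measured by ChIP-seq of histone H3 acetylated at lysine 27 (H3K27ac), a mark of active promoters and enhancers, with levels given as tags scaled to 10000000 tags per library.

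All mice were 30 days old and received interleukin-33 (IL-33), an alarmin of the IL-1 family of cytokines, or else vehicle, by injection into a cerebral ventricle on 1 side, and cortical microglia were isolated 4 h later by Percoll gradient and cell sorting. H3K27ac libraries came from 4 female mice (mice 3, 4, 7 and 8) and 4 male mice (mice 1, 2, 5 and 6), 1 library per mouse, and input libraries of the 4 male mice have no values in the tables used here. Strain and genotype are not stated. Neither is the mouse that received IL-33 or vehicle, so IL-33 is compared here through the authors' deposited table only, and the spread among the libraries of a sex includes any effect of IL-33.

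Female libraries held 2155209 to 4133042 tags and male libraries 5160915 to 10019606, so that 1 read was worth 2.41953 to 4.63992 tags in female and 0.998043 to 1.93764 tags in male libraries. The file headers give 1 date and dual index reads for the female libraries and another date and single index reads for the male ones, so sex, library date and depth cannot be told apart. Promoter regions were found for all 10 microglial marker genes, with a summed level of 1942 to 2901 tags in female and 1593 to 1984 tags in male libraries. Markers of neurons (3 of 6 with a promoter region), blood myeloid cells (1 of 5) and lymphocytes (1 of 4) summed to at most 8.02 tags in any library. Those of astrocytes (2 of 5, nearly all from Slc1a3) summed to 65.0 to 92.0 tags in female and 31.9 to 60.1 in male libraries. Oligodendrocyte markers (4 of 5) summed to 26.6 to 106.7 tags in female and 17.0 to 65.0 in male libraries, and endothelial markers (2 of 4) to 44.0 to 97.6 tags in female and 50.4 to 69.2 in male libraries. The part of other cells in the results below was not tested.

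A MAP kinase cascade is a relay of kinases in which a MAP3K phosphorylates a MAP2K, the MAP2K phosphorylates a MAP kinase on a threonine and a tyrosine, and the MAP kinase acts on transcription factors and further kinases. MAP4Ks stand above the MAP3Ks. The branches are named after their last kinase (ERK, ERK5, JNK and p38), and in macrophages the ERK and p38 branches carry signals from Toll-like and IL-1 family receptors to cytokine genes.

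Regions of these genes lay more often in introns than the average region. Of the 411 regions, 63.7% were intronic and 19.95% intergenic, against 46.0% and 31.6% of all regions. Regions more than 3000 bp from a transcription start site (TSS) numbered 308, or 74.9% against 69.5% of all, while 6 lay more than 100 kb away, or 1.46% against 7.49% of all. The number per gene went from 1 (Map3k10, Map3k21, Mapk4, Mapk15 and Mapk8ip2) to 43 at Map4k4, followed by 30 at Map2k6, 26 at Map3k8, 25 at Map3k1 and 24 at Map3k20. Peaks had been found in libraries of both treatments at 294 regions, with IL-33 alone at 90 (21.9%, against 18.8% of all regions) and with vehicle alone at 27 (6.57%, against 8.86%).

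The main comparison asked which distal regions of these kinase genes gained or lost H3K27ac after IL-33. The rises were concentrated at a MAP2K and a MAP3K gene: Map2k6, which encodes the p38 activator MKK6, had 10 risen regions, and Map3k8, which encodes TPL2, a MAP3K that activates the ERK kinases MEK1 and MEK2 in macrophages, had 8, per the authors' deposited table. The few falls lay in introns of Map4k4 and Map4k3, members of the uppermost tier, and of Map3k5, which encodes the stress-activated MAP3K ASK1. Most kinase genes with a tested region had no call in either direction.

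An adjusted p is listed for 192 member regions of 26 genes in the authors' deposited table, of which 26 rose and 6 fell at an adjusted p under 0.05. That is 13.5% risen and 3.13% fallen, against 10.2% risen and 7.99% fallen among all 40352 regions with an adjusted p per the authors' deposited table (18.2% called in either direction). Genes with at least 1 rise numbered 7 of 26, against 19.4% of all tested genes, and genes with a fall 3 of 26, against 20.9%, per the authors' deposited table. Both directions occurred at Map4k4, and 17 genes had neither. The median log2 fold change was 0.03 over the member regions and -0.01 over all regions per the authors' deposited table. Leaving out Map2k6 and Map3k8, 2 genes chosen after their values were seen, 8 of 160 regions rose and 6 fell per the authors' deposited table, or 5.0% and 3.75%. Neighbouring regions are not independent, since 4 pairs of called member regions overlap and share reads.

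By tier of the cascade, the authors' deposited table gives 11 rises and no fall among 26 tested MAP2K regions, and 10 rises and 1 fall among 83 MAP3K regions. Among 45 MAP4K regions 1 rose and 5 fell, and among 34 MAP kinase regions 1 rose and none fell, per the authors' deposited table. The median log2 fold change per the authors' deposited table was 0.77 for MAP2Ks, 0.06 for MAP3Ks, -0.36 for MAP4Ks and -0.00 for MAP kinases. Branches were counted by their MAP2Ks and MAP kinases, with Map3k8 added to ERK and Map3k2 and Map3k3 to ERK5. No MAP3K was counted with p38 or JNK, and Map3k4 and the MAP4Ks were in no branch. By branch, 11 of 39 regions of the p38 branch and 9 of 24 of the ERK branch rose and none fell per the authors' deposited table. No region was called among 9 of the ERK5 branch, 5 of the JNK branch, 2 of the atypical MAP kinases or 11 of Map3k14, which encodes the NF-kB-inducing kinase NIK, per the authors' deposited table. The 5 regions of the JNK branch all belong to Mapk8. Differences between tiers or branches were not tested, and those between branches depend on this unequal membership. Map2k6 has 10 of the 11 rises and 20 of the 26 regions of the MAP2Ks, and 10 of the 11 rises of the p38 branch, per the authors' deposited table. Map3k8 has 8 of the 10 rises of the MAP3Ks and 8 of the 9 of the ERK branch, and Map4k4 has 36 of the 45 regions and 3 of the 5 falls of the MAP4Ks, per the authors' deposited table.

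**Figure D1:**
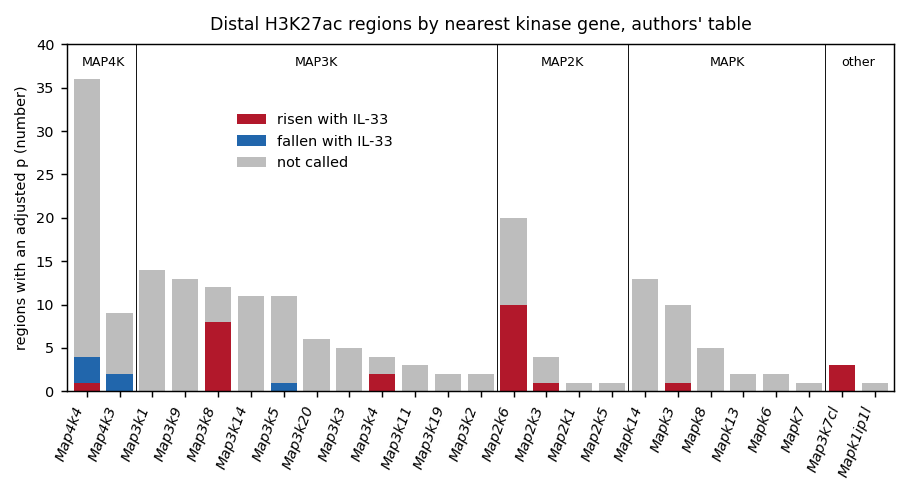
Number of distal regions with an adjusted p (y axis) by nearest gene (x axis), ordered by tier, with risen regions in red, fallen regions in blue and uncalled regions in grey, from the authors' deposited table. Risen regions fill 10 of 20 at Map2k6 and 8 of 12 at Map3k8, while the tallest bar, Map4k4 with 36 tested regions, holds 1 rise and 3 falls.

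At Map2k6 all calls lay in the gene body. Of 20 tested regions, 12 lay inside the annotated gene and 10 of those rose, from 21.6 to 74.5 kb past its 5′ end, whereas the 8 regions outside the gene stood between -0.50 and 0.67 with no call, per the authors' deposited table. The strongest change lay in an intron 30.9 kb from the TSS (chromosome 11, 110429771 to 110430271, mm10), with group values of 6.13 with IL-33 and 1.95 with vehicle on a log2 scale, and rose by 3.54 log2 units (SE 0.38, adjusted p = 9.06e-18) per the authors' deposited table. This region had 108.56, 166.95, 25.09 and 4.64 tags in female mice 3, 4, 7 and 8, and 163.68, 124.85, 9.44 and 0 tags in male mice 1, 2, 5 and 6. Mice 3 and 4 were highest among the female libraries, mice 1 and 2 among the male ones, and the sexes overlapped. Called regions were selected by the authors' IL-33 comparison of this series. A shared order of mice across them, here and below, is built into that selection and is no separate result.

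Neighbouring intron regions of Map2k6 rose as well per the authors' deposited table. A region 28.3 kb from the TSS stood at 2.68 (SE 0.63, adjusted p = 0.000417, group values 5.10 with IL-33 and 1.07 with vehicle), and a region 31.7 kb away at 2.66 (SE 0.61, adjusted p = 0.000221, group values 3.62 with IL-33 and 0.72 with vehicle) per the authors' deposited table. The region at 28.3 kb had 49.88, 84.68, 2.79 and 18.56 tags in female mice and 87.83, 52.69, 0 and 0 tags in male mice, again with mice 3 and 4 and mice 1 and 2 highest in their sex. In all, 19 of the 20 tested regions had a positive log2 fold change per the authors' deposited table. The region at the annotated 5′ end itself carried little mark, with 0, 7.26, 0 and 4.64 tags in female mice 3, 4, 7 and 8 and 5.99, 5.73, 7.34 and 1.94 tags in male mice 1, 2, 5 and 6. Each of these is at most 7 reads, and this region has no IL-33 comparison because the authors' deposited table holds no promoters. Distances of part of the Map2k6 regions run from another start site inside the gene. The rise 74.5 kb past the 5′ end lies 4.91 kb from that site, which has no region within 1000 bp assigned to Map2k6. Map2k3, the gene of MKK3, the other p38-specific MAP2K, had 1 rise among 4 tested regions per the authors' deposited table, in an intron 3.403 kb from the TSS at 0.54 (SE 0.18, adjusted p = 0.0199; group values 6.80 with IL-33 and 6.26 with vehicle).

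At Map3k8, 7 of 8 tested regions inside the gene and 1 of 4 outside rose, and all 12 had a positive log2 fold change per the authors' deposited table. The strongest was intergenic, 86.8 kb downstream of the TSS and 64.9 kb past the end of the gene (chromosome 18, 4265913 to 4266413), at 3.11 (SE 0.40, adjusted p = 3.39e-12) with group values of 5.66 with IL-33 and 1.93 with vehicle per the authors' deposited table. It had 61.62, 159.69, 5.57 and 0 tags in female mice 3, 4, 7 and 8, and 108.79, 91.63, 8.39 and 17.44 tags in male mice 1, 2, 5 and 6. Within each sex mice 3 and 4 and mice 1 and 2 were highest, an order that the selection of risen regions brings with it, and the sexes overlapped. Inside the gene the rises formed an upstream group 3.13 to 4.14 kb from the TSS, at 1.26, 2.45 and 1.78, and a downstream group at 15.7 to 19.1 kb, at 0.89 to 1.82, per the authors' deposited table.

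**Figure D2:**
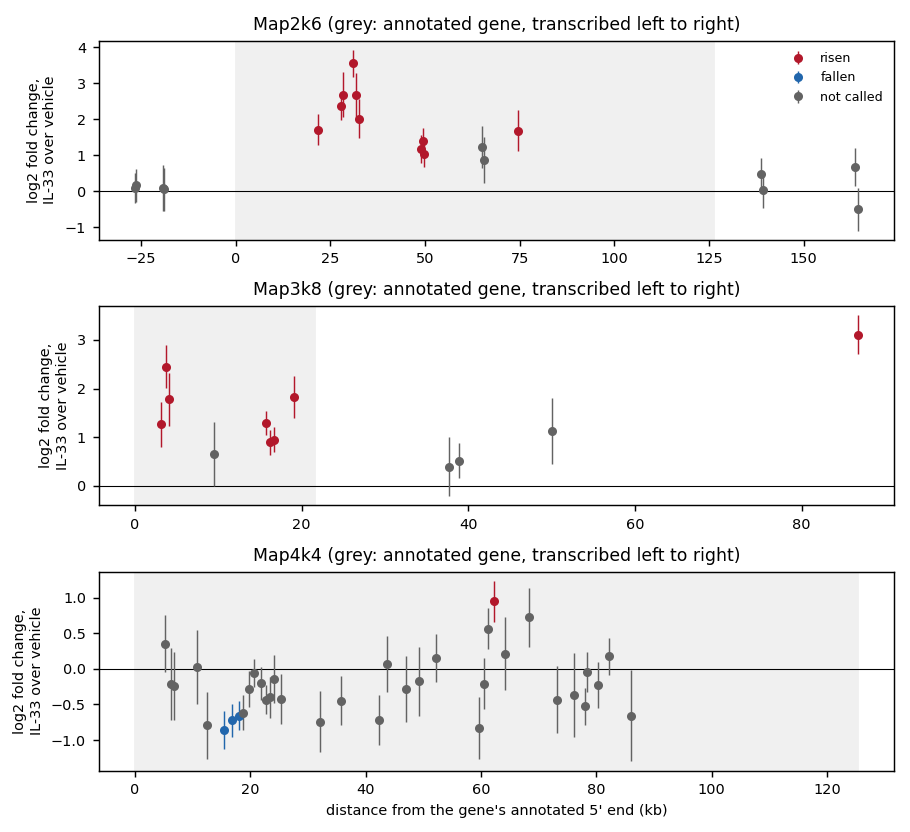
Log2 fold change of IL-33 over vehicle (y axis, bars are the standard errors of the authors' deposited table) against distance from the annotated 5′ end in kb (x axis) for each tested region of Map2k6, Map3k8 and Map4k4, with the annotated gene in grey. Red points rose, blue points fell and grey points were not called. The 10 rises of Map2k6 lie within the gene, the largest rise of Map3k8 lies 86.8 kb from its start, and the falls of Map4k4 lie together in the first part of the gene.

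Of the 1132 genes with at least 10 tested regions, 19 had a share of risen regions at least as high as the 66.7% of Map3k8, and 58 at least as high as the 50% of Map2k6, per the authors' deposited table. Among the other MAP3Ks, Map3k4, the gene of a MAP3K that feeds the p38 and JNK branches (MEKK4), had 2 rises among 4 tested regions per the authors' deposited table. They lay in introns 67.9 kb (0.78, SE 0.21, adjusted p = 0.00297, group values 7.06 with IL-33 and 6.31 with vehicle) and 10.8 kb (1.29, adjusted p = 0.0277) from the TSS per the authors' deposited table. The region at 67.9 kb was among the strongest of all members, with 372.63, 411.32, 200.68 and 190.24 tags in female mice 3, 4, 7 and 8 and 195.62, 163.79, 121.62 and 135.63 tags in male mice 1, 2, 5 and 6. The sexes overlapped there only between male mouse 1 and female mouse 8.

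Mapk3, which encodes ERK1, was the single MAP kinase gene with a call per the authors' deposited table. Of its 10 tested regions, all outside the gene, an intergenic region 19.3 kb upstream rose by 0.71 (SE 0.26, adjusted p = 0.0405, group values 5.77 with IL-33 and 5.07 with vehicle) per the authors' deposited table. The 3 tested regions assigned to Map3k7cl, whose product has no kinase domain, all rose, at 0.98, 1.93 (SE 0.47, adjusted p = 0.000727, group values 4.44 with IL-33 and 2.51 with vehicle) and 2.68 per the authors' deposited table. The last had its vehicle value listed at 0 per the authors' deposited table and at most 26.41 tags in any library, with a standard error of 0.67. None of the 3 lies inside that gene. They start 7.79 to 29.9 kb past its end, and the next gene, Bach1, lies 73.2 to 95.3 kb from them.

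The falls were smaller than the largest rises. Map4k4, which encodes a MAP4K (HGK) upstream of the JNK branch, had 3 falls within 2.61 kb of each other in an intron, at -0.86 (SE 0.27, adjusted p = 0.0122), -0.73 (SE 0.23, adjusted p = 0.0124) and -0.66 (SE 0.20, adjusted p = 0.00962), per the authors' deposited table. For the last, 18.007 kb from the TSS, the group values were 5.97 with IL-33 and 6.66 with vehicle per the authors' deposited table. That region had 123.23, 159.69, 234.13 and 278.40 tags in female mice 3, 4, 7 and 8 and 141.72, 84.76, 179.29 and 145.32 tags in male mice 1, 2, 5 and 6. Mice 7 and 8 were highest among the female libraries and mouse 5 among the male ones, and the sexes overlapped. The same gene had its rise 62.2 kb from the TSS, at 0.95 (SE 0.29, adjusted p = 0.0108), and 27 of its 36 tested regions had a negative log2 fold change per the authors' deposited table.

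Map4k3, the gene of the MAP4K GLK, had 2 falls among 9 tested regions, at -1.26 (SE 0.36, adjusted p = 0.00545, group values 3.73 with IL-33 and 5.09 with vehicle) and -1.06 (adjusted p = 0.042), 8.53 and 9.29 kb from the TSS per the authors' deposited table. The region at 8.53 kb had 41.08, 24.20, 97.55 and 78.88 tags in female mice 3, 4, 7 and 8 and 11.98, 29.78, 50.33 and 52.32 tags in male mice 1, 2, 5 and 6. Mice 7 and 8 were again highest among the female libraries, and mice 5 and 6 among the male ones. At Map3k5, 1 of 11 tested regions fell, 68.7 kb from the TSS at -1.34 (SE 0.51, adjusted p = 0.0479, group values 2.21 with IL-33 and 3.71 with vehicle) per the authors' deposited table. Its levels were low, 4.84 to 27.87 tags in female and 6.99 to 32.94 tags in male libraries.

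**Figure D3:**
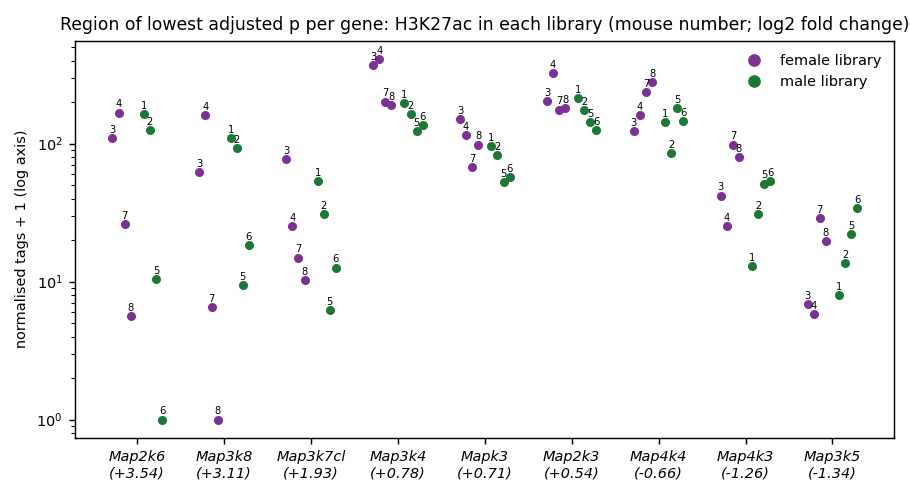
Normalised tags plus 1 (log y axis) in each of the 8 libraries for the region of lowest adjusted p of the 9 genes with a call (x axis, with its log2 fold change from the authors' deposited table). Purple points are female and green points male libraries, numbered by mouse. At Map2k6 and Map3k8 the libraries of each sex spread over more than a factor of 10, while at Map2k3 and Mapk3 all 8 lie within a factor of 3.

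Tested regions without a call were all that 17 further genes had, among them Map3k1, Map3k9, Map3k14, Map3k20, Mapk8 and Mapk14. Together they had 83 tested regions with log2 fold changes of -1.38 to 1.16, and the lowest adjusted p of a gene went from 0.0514 at Map3k9 to 0.8288 at Map2k5 per the authors' deposited table. Mapk14, which encodes p38 alpha, had 13 tested regions between -0.43 and 0.72 per the authors' deposited table. Map3k9, the gene of the mixed-lineage kinase MLK1, had 12 of 13 tested regions below 0 with a median of -0.58 and no call per the authors' deposited table. Map3k1, the gene of the MAP3K MEKK1, had 9 of 14 above 0 with a median of 0.03 per the authors' deposited table. The other 21 members have no distal region with an adjusted p, among them Map2k4 and Map2k7, the MAP2Ks of the JNK branch, and Map2k2, so nothing can be said of IL-33 there.

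Genes that act around the cascade had rises and falls, each at a smaller share of regions than over all regions. Of 33 such genes, 21 had a tested region, and among their 161 regions 10 rose (6.21%, against 10.2% of all regions) and 8 fell (4.97%, against 7.99%) per the authors' deposited table. The difference from all regions was not tested. Of the 14 upstream genes (Ras, Raf and adaptor genes), 7 had a tested region. Among their 61 regions none rose and 3 fell (4.92%) per the authors' deposited table. All 3 falls were among the 29 tested regions of Tab2, which encodes a ubiquitin-binding adaptor (the largest -1.72, adjusted p = 0.0385), per the authors' deposited table. Of the 4 scaffold genes, 2 had a tested region. Lamtor3, which holds MEK1 at late endosomes, had 1 fall among 9 tested regions, at -1.09 (adjusted p = 9.2e-05), per the authors' deposited table. Of the 10 downstream kinase genes, 9 had a tested region. Among their 57 regions 6 rose (10.5%) and 4 fell (7.02%) per the authors' deposited table, near the shares over all regions. Mapkapk2, whose product MK2 is activated by p38, had 3 rises and 1 fall among 14 tested regions, the largest rise at 2.11 (SE 0.57, adjusted p = 0.00237), per the authors' deposited table. Mknk1, the gene of an eIF4E kinase, had 1 rise among 7, at 1.92 (SE 0.53, adjusted p = 0.00326), per the authors' deposited table.

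The largest falls of that group were at Rps6ka3 (-1.95, adjusted p = 0.0225), which encodes the ERK-activated kinase RSK2, and Mknk2 (-1.17, adjusted p = 0.012), the partner gene of Mknk1, per the authors' deposited table. Of the 5 downstream factor genes, 3 had a tested region, and 4 of their 33 regions rose (12.1%) and none fell per the authors' deposited table. Elk3, the gene of an ERK-regulated ETS factor, had 3 rises among 16 tested regions (the largest 2.25, SE 0.56, adjusted p = 0.000821), and Creb1 had 1 among 16 (1.59, adjusted p = 0.0286), per the authors' deposited table.

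Promoter H3K27ac of the members ranged from strongly marked kinase genes, such as Map3k3 and Map3k8, to genes with almost no read, such as Mapk4 and Mapk12. For 42 members a region lay within 1000 bp of the TSS, and the strongest of these had a median level of 55.0 tags over the members, against 40.3 tags over 13158 genes. All regions have the same length, so no scaling by length was needed. The order uses means over the 8 libraries, and female libraries were lower at promoters rich in G+C, as given below. The highest was that of Map3k3, the gene of the ERK5-branch MAP3K MEKK3, with 202.45, 283.08, 222.98 and 259.84 tags in female mice 3, 4, 7 and 8 and 368.28, 266.88, 368.02 and 337.15 tags in male mice 1, 2, 5 and 6. Map3k8 followed with 217 ± 79.0 tags in female and 197 ± 83.9 in male libraries (SD, n = 4 each), and Map3k2, the gene of MEKK2, with 219 ± 51.9 tags in female and 195 ± 32.2 in male libraries. Next came Mapk1ip1 with 160.4 ± 54.1 tags in female and 232 ± 35.6 in male libraries, and Map2k2, the gene of MEK2, with 99.3 ± 26.1 tags in female and 224 ± 35.5 in male libraries (SD, n = 4 each). Of the 41 steps between neighbours in the order of the 42 levels, 39 were smaller than the larger SD of the pair over the 8 libraries. The exceptions were the step below Map3k3 and that between Map4k1 and Map3k14.

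At the lower end, Mapk8ip2 had no read in any library. Mapk4 had 1 read in all, and Mapk15, Mapk12 and Mapk11, the genes of an atypical ERK, of p38 gamma and of p38 beta, averaged 1.23, 1.58 and 2.05 tags with at most 5 reads in any library. Mapk13, the gene of p38 delta, averaged 3.89 tags. Mapk14 averaged 98.8 tags, 108 in female and 89.9 in male libraries. The start sites of Map3k4, Map3k10, Map3k11, Map2k3 and 1 start site of Mapk6 lie in regions that the table assigns to another gene name. The levels of these genes may therefore be understated, and Map2k3 has none among those given.

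**Figure D4:**
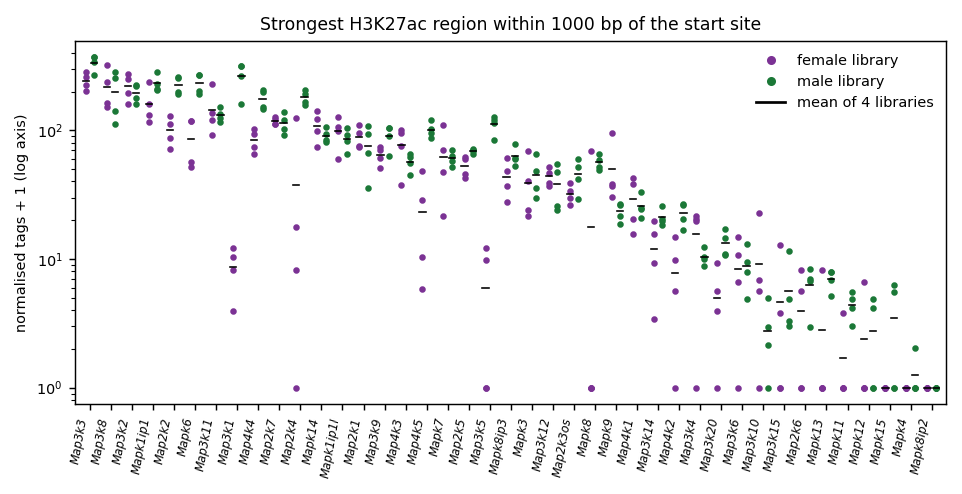
Normalised tags plus 1 (log y axis) of the strongest region within 1000 bp of the TSS for 41 of the 42 members (x axis, by mean level), in female (purple) and male (green) libraries, with the mean of each 4 libraries as a bar. Levels run from Map3k3 on the left to Mapk8ip2, with no read, on the right. At Map3k1, Map3k5 and Map4k5, picked among the genes called between the sexes, the female libraries lie below all male ones.

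The second comparison asked which of these regions differ between female and male mice. By limma, lower H3K27ac in female libraries was called near the start sites of 7 kinase genes, with the largest called differences at Map3k1, Map3k5, Map4k4 and Map4k3. On log2(tags + 1), 10 of 234 tested member regions were lower in female libraries at an adjusted p under 0.05, against 1.87% of all 53348 tested regions, and 0 were higher, against 0.15%. Without adjustment, limma gave 22 member regions higher and 22 lower at p under 0.05. The share over all regions at an unadjusted p was not counted, so these numbers have no background. By edgeR on the recovered reads, 12 member regions were lower, against 2.75% of all tested regions, and none higher, against 0.09%. At an unadjusted p under 0.05, edgeR gave 31 member regions, 7 of them higher and the rest lower. The share over all regions was not counted there either. All 10 limma calls lay within 600 bp of a TSS. TMM scaling, edgeR and quantile normalisation each also called Map3k3 at 103 bp (-0.76 to -0.71) and another region of Map3k1 at 1044 bp (-1.51 to -1.44), both lower in female libraries. Of the 55 member regions within 1000 bp of a TSS that were tested, 18.2% were thus lower in female libraries, against 5.64% of all such regions.

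The promoter of Map3k1 had 2.93, 0, 2.79 and 4.64 tags in female mice 3, 4, 7 and 8, against 192.62, 134.01, 229.62 and 238.33 tags in male mice 1, 2, 5 and 6, in the region centred 9 bp from the TSS (chromosome 13, 111808734 to 111809234). No female library had more than 1 read there, and the difference was -6.01 log2 units (SE 0.54, limma, adjusted p = 0.000201). In the next region, 251 bp from the TSS, female libraries had 2.93, 7.26, 11.15 and 9.28 tags and male libraries 262.49, 160.35, 314.54 and 315.84 tags (-5.00, SE 0.41, limma, adjusted p = 0.000134). Both regions overlap and share reads.

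At Map3k5, 232 bp upstream of the TSS, female libraries had 8.80, 0, 11.15 and 0 tags and male libraries 125.75, 83.61, 113.24 and 120.13 tags (-5.06, SE 0.81, limma, adjusted p = 0.00482). At Map4k4, 88 bp upstream, female libraries had 17.60, 0, 8.36 and 0 tags and male libraries 109.78, 107.67, 104.85 and 98.82 tags (-4.87, SE 0.85, limma, adjusted p = 0.00853). At Map4k3, 126 bp upstream, female libraries had 5.87, 16.94, 8.36 and 13.92 tags and male libraries 84.83, 96.21, 142.59 and 158.89 tags (-3.36, SE 0.41, limma, adjusted p = 0.00106). In each of these regions every female library lay below every male library. They were chosen by their calls, so this lack of overlap comes with the selection and is no separate result. How often it occurs over all regions was not counted. The other calls were smaller, at Map4k5 (-2.56), Mapk6 (-1.53), Map2k2 (-1.50 and -1.19) and a second region of Map4k4 (-1.07), and none of these 5 was called when any 1 male library was left out. Further regions near the start sites of Map4k3 and Map3k5 were tested without a call. At Map4k3, 374 bp from the TSS, the means were 76.3 tags in female and 55.8 in male libraries (0.36, limma, adjusted p = 0.723). At Map3k5 they were 44.9 and 57.6 tags at 247 bp (-0.34, limma, adjusted p = 0.709), and 17.7 and 40.5 tags 578 bp upstream (-1.21, limma, adjusted p = 0.196).

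Not all low promoters in female libraries passed the test. Near the TSS of Map2k4, the gene of the JNK activator MKK4, a region had 123.23, 7.26, 16.72 and 0 tags in female mice 3, 4, 7 and 8 and 164.68, 155.77, 205.50 and 189.89 tags in male mice 1, 2, 5 and 6 (-3.95, SE 1.02, limma, adjusted p = 0.078). The promoter of Mapk8, the gene of JNK1, had 67.48, 0, 0 and 0 tags in female mice and 50.90, 48.11, 63.96 and 58.13 tags in male mice (-4.28, SE 1.18, limma, adjusted p = 0.102). In both, female mouse 3 stood apart from the other female libraries, and without it both were called lower (Map2k4 -5.09, limma, adjusted p = 0.00338, and Mapk8 -5.81, limma, adjusted p = 0.000852). The Map2k4 region was called in 4 of the 15 fits, also with a pseudocount of 5, with no filter on low values and with quantile normalisation.

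The median difference between female and male libraries was 0.22 log2 units over all tested regions and 0.30 over the 234 member regions. For regions within 1000 bp of a TSS it was 0.02 over all and -0.40 over the 55 of the members. With scaling by the TMM method on recovered reads the median of all regions was -0.01. In that fit 12 member regions were lower, against 2.73% of all tested regions, and none higher, against 0.08%.

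Of the 7 genes with a region called lower in female libraries, 6 had a tested promoter with a G+C value, and 5 of these had at least 70% G+C. Map2k2 had 60.7%, and Map4k4 had no value. RefSeq promoter sequences of build GRCm38.p6, from 250 bases before to 50 after the annotated start, were found for 37 member genes, and 24 of these promoters lay over a region of the same gene that was tested. Their G+C content correlated with the difference between female and male libraries at -0.65 (Spearman) and -0.74 (Pearson) across the 24 promoters, and at -0.43 (Spearman) across 7577 promoters of all genes, as a description of points that share the same 8 libraries. The 5 member promoters of at least 75% G+C had a median difference of -4.28 log2 units, the 3 between 70 and 75% one of -2.05, the 11 between 60 and 70% one of -0.47, and the 5 below 60% one of 0.08. Over all genes the medians of these classes were -1.66 (592 promoters), -0.49 (851), -0.09 (2974) and 0.11 (3160). Map3k9 departed from this order, with 75.7% G+C and a difference of -0.48, and so did Map2k4, with 59% and -2.05, and Map2k2, at -1.19. Library date, depth and sex cannot be told apart in this pattern.

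Promoter sequences are printed here 5′ to 3′ on the strand of the gene, with CpG dinucleotides in capitals, to show their base composition. They are those of 3 genes with a region called lower in female libraries, of Map2k7, tested without a call, and of Map2k6, not tested. Map3k1 (chr13:111808944-111809243, minus strand) and Map4k3 (chr17:80727976-80728275, minus strand) have 82.7% G+C and 55 CpG dinucleotides each, and Map3k5 (chr10:19934276-19934575, plus strand) has 79.7% and 47. Map2k7 (chr8:4238490-4238789, plus strand), the gene of the JNK activator MKK7, has 58% and 29, with 57.1 tags in female and 53.3 tags in male libraries on average. Map2k6 (chr11:110398852-110399151, plus strand), the member with the most risen regions after IL-33, has 50% and 14.
Map3k1: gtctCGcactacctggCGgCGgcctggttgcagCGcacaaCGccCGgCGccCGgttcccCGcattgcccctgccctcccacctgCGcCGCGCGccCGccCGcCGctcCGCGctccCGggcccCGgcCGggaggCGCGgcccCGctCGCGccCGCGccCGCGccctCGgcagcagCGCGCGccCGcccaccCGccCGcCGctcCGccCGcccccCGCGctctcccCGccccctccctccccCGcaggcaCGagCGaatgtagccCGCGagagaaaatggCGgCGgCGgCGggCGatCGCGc
Map4k3: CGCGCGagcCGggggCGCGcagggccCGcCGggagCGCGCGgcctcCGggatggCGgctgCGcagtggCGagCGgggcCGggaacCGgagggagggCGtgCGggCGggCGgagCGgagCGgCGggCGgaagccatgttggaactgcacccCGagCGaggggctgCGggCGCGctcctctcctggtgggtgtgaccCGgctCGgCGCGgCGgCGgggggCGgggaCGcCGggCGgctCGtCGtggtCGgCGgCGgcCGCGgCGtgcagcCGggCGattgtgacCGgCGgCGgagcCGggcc
Map3k5: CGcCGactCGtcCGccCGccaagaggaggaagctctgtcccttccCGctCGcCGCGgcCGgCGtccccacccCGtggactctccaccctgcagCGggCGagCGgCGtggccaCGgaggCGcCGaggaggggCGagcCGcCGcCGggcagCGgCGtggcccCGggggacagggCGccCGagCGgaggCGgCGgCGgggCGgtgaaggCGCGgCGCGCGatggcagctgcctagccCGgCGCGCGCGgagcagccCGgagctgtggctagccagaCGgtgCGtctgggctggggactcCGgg
Map2k7: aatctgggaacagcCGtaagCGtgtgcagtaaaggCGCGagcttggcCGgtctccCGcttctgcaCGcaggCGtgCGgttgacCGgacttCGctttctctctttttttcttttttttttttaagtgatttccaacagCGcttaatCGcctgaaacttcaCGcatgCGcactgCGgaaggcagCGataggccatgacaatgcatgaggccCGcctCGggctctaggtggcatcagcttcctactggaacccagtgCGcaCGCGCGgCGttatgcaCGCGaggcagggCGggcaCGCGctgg
Map2k6: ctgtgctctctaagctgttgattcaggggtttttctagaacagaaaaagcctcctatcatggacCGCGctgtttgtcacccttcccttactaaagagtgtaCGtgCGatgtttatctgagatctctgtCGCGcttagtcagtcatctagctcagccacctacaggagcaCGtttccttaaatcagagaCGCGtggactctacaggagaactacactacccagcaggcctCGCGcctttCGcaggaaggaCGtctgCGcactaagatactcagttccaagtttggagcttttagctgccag

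**Figure D5:**
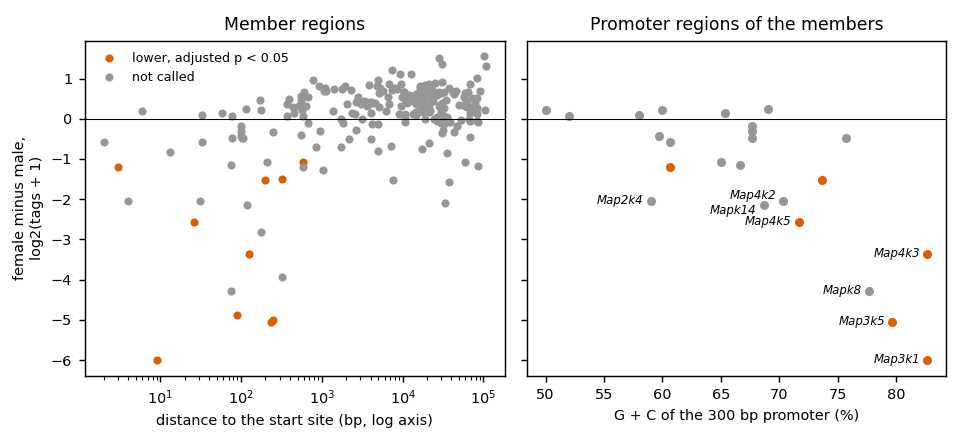
Difference between female and male libraries in log2(tags + 1) (y axis) for the tested member regions against distance to the TSS (left, log axis) and for 24 member promoters against G+C content (right). Orange points were lower in female libraries at an adjusted p under 0.05 and grey points were not called. The called regions lie within 600 bp of a TSS, and the lowest promoters, Map3k1 at -6.01 and Map3k5 at -5.06, are among those with the most G+C.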

How the data were processed

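H3K27ac ChIP-seq libraries of 8 mice were analysed, 4 female and 4 male, and 4 inputs were not used here. Bowtie2 and HOMER are named, without versions, in the submitters' processing notes, with build mm10 (GRCm38). The authors deposited a normalised signal, which per the file headers is the tag count in 500 bp scaled to 10000000 tags per library, and dividing it by the header's factor gave whole reads within 0.01 for 100% of values. The authors' deposited table of IL-33 against vehicle gives a log2 fold change, log2 group values, scores (mean level and standard error), a p-value and an adjusted p-value for each region more than 3000 bp from a TSS, and the sources used here do not name its tool. Of 263 member regions in it, 71 have no adjusted p (mean level at most 2.73) and were not counted. That the group values are on a log2 scale was read from the values.

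Calls use an adjusted p under 0.05. Female and male libraries were compared with limma 3.58.1 (trend) in R 4.3.3 on log2(tags + 1) over regions with a mean of at least 10 tags, with Benjamini-Hochberg adjustment over all of them, after the fit was tested on simulated data. The simulated counts held no effect of IL-33, library date or G+C, so they cannot show how the fit behaves with these. A fold change on the log2(tags + 1) scale understates the change of low regions. Alternatives were a pseudocount of 5, a mean of at least 30 tags or no filter, quantile and TMM scaling, edgeR 4.0.16 quasi-likelihood on recovered reads, and leaving out each library. Each replicate is 1 mouse, and pairs of libraries of a group had a chi-square of 1.77 to 7.02 per degree of freedom, above sampling noise. Named were all genes with a call, the region of lowest adjusted p of each, the 5 largest rises and falls, at most 5 called regions between the sexes in full, the 5 highest and lowest promoters, and the 4 largest changes each way in the list of neighbouring pathway genes. Promoter levels use the strongest region within 1000 bp of a TSS. One gene's own values are not reported here, and its regions stay in the counts over members. The members and all lists were chosen with earlier results of these data known. Tables were joined with Python 3.11.15 and pandas 2.3.3.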

Additional observations from a re-analysis of the deposited data

Results flagged for a closer look

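In 112 groups of 4 libraries (the promoter levels of the members and the other regions given by library, by sex), 8 had a library whose gap to the nearest other filled nearly the whole range of its group. Chance gives about 1 in 20 for normally distributed values. That rate does not hold near 0, where 1 read can be enough, and groups without any spread could not be flagged. Female mouse 3 had 123.23 tags near the start of Map2k4, against 0 to 16.72 in the other female mice, and 67.48 tags at the Mapk8 promoter, where the other female mice had 0. Female mouse 4 had 94.36 tags near the start of Mapk9, which encodes JNK2, against 29.34 to 37.12 in the other female mice. At Map3k4 female mouse 4 had 0 tags and the other female mice 18.56 to 20.54. The other 4 concern promoters near 0. Female mouse 4 had 7.26 tags at Mapk13, female mouse 7 had 2.79 tags at Mapk11 and 5.57 tags at Mapk12, and male mouse 5 had 1.05 tags at Mapk4, while the other mice of the same sex had 0 there. These 4 values stand for 3, 1, 2 and 1 reads.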

How the results depend on the processing

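The 26 risen member regions numbered 18 to 21 under the other settings of the IL-33 comparison. With an adjusted p under 0.01, 2 regions fell in place of 6 and 4 genes had a rise in place of 7 (Map2k6, Map3k8, Map3k4 and Map3k7cl), and with an absolute log2 fold change of at least 1, 3 regions fell and 4 genes had a rise. These settings remove calls by their construction. Counting only regions inside the annotated gene left Map2k6 with 10 rises and Map3k8 with 7. Between the sexes, 10 to 13 member regions were lower in female libraries under the other filters, scalings and tests. Leaving out 1 library at a time gave 5 to 12 lower and 0 to 1 higher: 5 without any 1 of male mice 1, 2, 5 and 6, 6 without female mouse 7 or 8, and 1 higher without female mouse 3 (Map3k3 at 37.2 kb, 1.11, limma, adjusted p = 0.0357, named after its value was seen). The 2 regions of Map3k1 and those of Map3k5, Map4k3 and Map4k4 described in full were called in all 15 fits. With the region nearest to the TSS, the median promoter level was 39.2 tags in place of 55.0 (SD between libraries 13.4), since a nearer region can be weaker. Of 106 checks on named regions, 95 kept direction and call, 11 lost the call and 0 reversed. The IL-33 checks reuse the deposited log2 fold change, so none of those could reverse. Those between the sexes cover only the regions described in full. The smaller calls, at Map4k5, Mapk6, Map2k2 and the second region of Map4k4, are not among them and were made in 7 to 10 of the 15 fits. No paired analysis was possible because female and male mice share no mouse number. Depth limits the female libraries, where 3 reads are worth 7.26 to 13.9 tags, against 2.99 to 5.81 tags in male libraries.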

Other observations

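The promoter of Map3k8 and the region beside it have no IL-33 comparison and are given by library. At the promoter female mice 3, 4, 7 and 8 had 234.73, 321.80, 150.51 and 162.40 tags, and male mice 1, 2, 5 and 6 had 281.45, 254.28, 140.50 and 110.45 tags. In the region 603 bp into the gene, female mice had 170.18, 159.69, 22.30 and 37.12 tags and male mice 136.73, 103.09, 19.92 and 11.63 tags. Mice 3 and 4 and mice 1 and 2 were highest within their sex in both.

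Over the 26 risen member regions, the median level was 61.6, 90.7, 20.9 and 13.9 tags in female mice 3, 4, 7 and 8, and 60.9, 53.3, 16.8 and 12.6 tags in male mice 1, 2, 5 and 6. Over the 6 fallen regions it was 52.8, 43.5, 126.8 and 90.5 tags in the female mice and 42.4, 41.2, 86.0 and 65.9 tags in the male mice. These regions were selected by the authors' IL-33 calls, so a common split of the mice over them is built into that selection. The labels do not give the treatment of a mouse, and none was assigned here.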
